A study of Homo sapiens with 6 samples.

Results

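CDH1, CDH2, VIM, ZEB1, ZEB2, SNAI2, EPCAM, KRT8, KRT18 and KRT19 are genes by which epithelial and mesenchymal cells are told apart, and their level and response to glucose withdrawal were measured in pancreatic ductal adenocarcinoma (PDAC) cells. The 10 genes were taken by symbol from the 60668 genes of the table. RNA-seq was performed on the human PDAC line MiaPaCa-2, an established line supplied by ATCC, with 3 libraries under low-glucose conditions (2.5 mM for 48 h) and 3 control libraries (25 mM, given no treatment). The series calls the libraries independent biological replicates, and it was made for a study of wild-type IDH1 under nutrient limitation. All 6 come from this single line, for which the labels name no added allele, and the treatment text of the labels gives 2.5 mM for the controls too, against the series design.

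Epithelial cells hold to each other through E-cadherin (CDH1) and the adhesion molecule EPCAM, and the keratins of simple epithelia, KRT8, KRT18 and KRT19, form their intermediate filaments. Mesenchymal cells build filaments of vimentin (VIM) and often carry N-cadherin (CDH2) in place of E-cadherin. In epithelial-mesenchymal transition (EMT), the transcription factors ZEB1, ZEB2 and SNAI2 bind E-box motifs and repress epithelial genes, CDH1 among them, and pancreatic cancer lines are spread along the range between the epithelial and the mesenchymal state.

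The E-box recognised by ZEB and SNAI proteins, CAGGTG or on the other strand CACCTG, was looked for on both strands in the promoters that RefSeq lists for the members, each taken from 250 bases before to 50 bases after a transcript start (GRCh38.p14). Of all 35116 promoters in that table, 20.6% held the motif. The table had 12 starts for 5 members, namely VIM, ZEB1, ZEB2, KRT8 and CDH2, and none for CDH1, EPCAM, SNAI2, KRT18 and KRT19. Matches were found at ZEB1 only, with 4 motifs in the windows of 2 of its 7 starts. VIM and CDH2, the most abundant member and the member without a read, are shown by the 250 bases before a start on the strand of the gene. For CDH2, with listed starts at 28177130 and 28036641, the more upstream one, at 28177130, was taken. ZEB1 is shown by each motif, in capitals, with the bases next to it.
VIM, chr10:17227991-17228240, plus strand: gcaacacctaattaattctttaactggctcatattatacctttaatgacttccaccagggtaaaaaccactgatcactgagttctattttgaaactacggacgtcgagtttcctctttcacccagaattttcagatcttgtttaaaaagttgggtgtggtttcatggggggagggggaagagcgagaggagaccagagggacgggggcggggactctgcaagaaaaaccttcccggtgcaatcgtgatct
CDH2, chr18:28177131-28177380, minus strand: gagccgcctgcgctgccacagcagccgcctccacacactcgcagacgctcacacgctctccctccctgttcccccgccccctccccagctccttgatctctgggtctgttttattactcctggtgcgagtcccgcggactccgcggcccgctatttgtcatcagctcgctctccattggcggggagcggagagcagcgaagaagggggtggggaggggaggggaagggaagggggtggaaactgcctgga
ZEB1, chr10:31318348-31318377, plus strand: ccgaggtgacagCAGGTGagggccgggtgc
ZEB1, chr10:31318966-31318991, plus strand: ccccaccaCACCTGaggaaaactttt
ZEB1, chr10:31319119-31319148, plus strand: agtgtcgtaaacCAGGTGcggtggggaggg
ZEB1, chr10:31319237-31319265, plus strand: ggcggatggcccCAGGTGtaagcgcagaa
The first of these lies 57 bases before the start at 31318417. The other 3 surround the start at 31319216, at 242 and 85 bases before it and 33 bases after it. A match describes the letters only, and no binding was measured.

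The control libraries held 9741183 to 10190154 reads on genes and the low-glucose libraries 10595408 to 13733477, so that the conditions did not overlap in depth. Mitochondrially encoded genes took 2.47% to 3.82% of the reads in control and 4.65% to 5.12% under low glucose, again without overlap. Their part in the results was not tested, apart from depth, which was made equal as described for the keratins and VIM. Of the 21101 genes tested with limma on log2(normalized count + 1), 30.9% were called at an adjusted p of 0.05 (14.7% rose and 16.2% fell, or 3111 and 3417 genes, which became 3933 and 2646 under scaling by library size), and in 43.9% the libraries of the conditions did not overlap. A normalized count is the number of reads divided by the size factor of the library. Of the members, CDH1, CDH2 and EPCAM had a mean normalized count under 1 and were not tested, and of the 7 tested 4 were called, VIM higher and KRT8, KRT18 and KRT19 lower, and these were also the 4 whose libraries did not overlap. Tests on the recovered reads called the same 4 members, against a background of 42.8% of 15322 genes in edgeR (20.9% rose, 21.9% fell) and 31.2% of 17560 genes in DESeq2 (13.7% rose, 17.5% fell). Because the members are few and the background is high, the count of members called is not read as a property of the group.

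In control cells the members ranged from some of the most abundant transcripts to none detected. In TPM (reads per length of all annotated exons, scaled to the same total in each library) VIM stood at 3540 ± 235 (SD, n = 3), KRT18 at 2231 ± 256, KRT8 at 1861 ± 165, KRT19 at 454 ± 52.8, ZEB1 at 24.1 ± 2.54 and SNAI2 at 0.827 ± 0.696. VIM ranked 26 among all genes by mean TPM and KRT18, KRT8 and KRT19 ranked 45, 57 and 265. The level and rank of VIM take its reads as counted. Genes on the other strand that share its exons held 69.8% to 73.8% as many reads, and the strand setting of the counting is not known. CDH1, EPCAM, ZEB2 and CDH2 had at most 3 reads in any of the 6 libraries. The label of the genes therefore met the data on each side in part. Epithelial keratins were abundant while CDH1 and EPCAM were near 0, and vimentin and ZEB1 were present while CDH2 was at 0. The order of neighbours held beyond the spread of the control libraries except for KRT18 (2003 to 2509 TPM) and KRT8 (1723 to 2044 TPM), whose ranges overlapped. With the length of the canonical transcript in place of all exons, KRT8 reached 4332 ± 502 TPM and stood above KRT18 at 2926 ± 416, so the order of these keratins is set by the choice of length. On that scale VIM had 5131 ± 480 TPM, and its lowest control library (4784) was below the highest of KRT8 (4889).

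**Figure D1:**
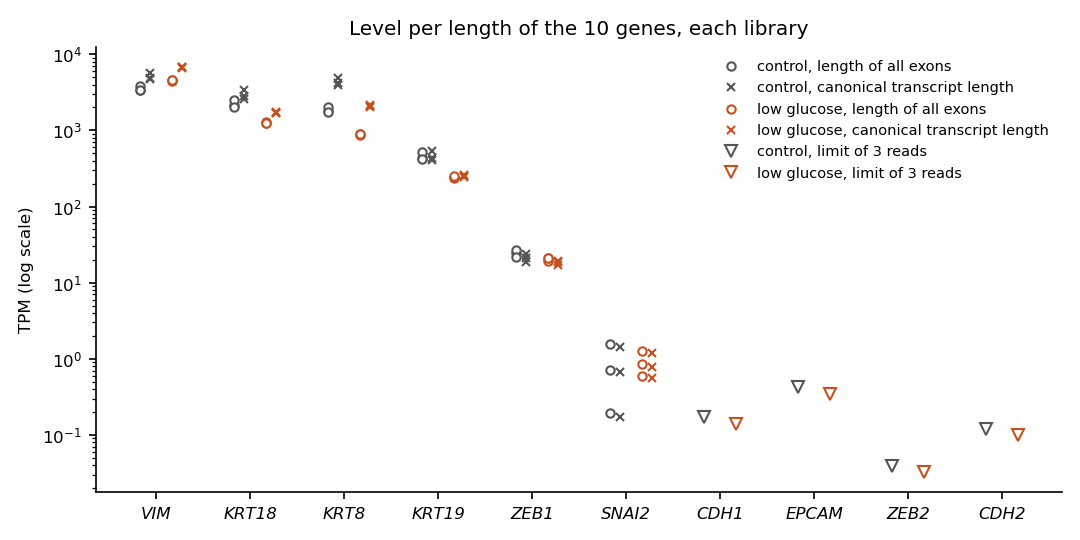
Level of each of the 10 genes in TPM (log axis) in each control (grey) and low-glucose (orange) library, with circles for the length of all exons, crosses for the length of the canonical transcript, and triangles for the highest TPM that 3 reads would give in any library of the condition, drawn for the genes that never passed 3 reads. VIM is the highest in all libraries at 3380 to 4567 TPM by the length of all exons, ZEB1 lies between 19.4 and 26.6 TPM, and 4 genes lie at or under their limits.

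The keratins fell. KRT8, the type II keratin of simple epithelia (chromosome 12, 52897187 to 52949954, minus strand, hg38), had 36341, 42135 and 37161 reads in the control libraries, or 40740, 46963 and 39759 normalized counts. In the low-glucose libraries it had 21362, 22050 and 27720 reads, or 20549, 21782 and 21004 normalized counts. Each low-glucose library was far below each control library. The mean normalized count went from 42487 ± 3907 to 21112 ± 624 (SD, n = 3), a decrease of 50.3%, with a log2 fold change of -1.01 (SE 0.0961, limma adjusted p = 3.26e-06). Only 2.81% of the 21101 genes tested had a lower log2 fold change.

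KRT18, the type I keratin that pairs with KRT8 (chromosome 12, 52948871 to 52952906, plus strand), stood at 21816, 25718 and 20614 normalized counts in control and at 13367, 13994 and 13148 under low glucose. The mean decreased by 40.6%, from 22716 ± 2668 to 13503 ± 439, and the log2 fold change was -0.74 (SE 0.0953, limma adjusted p = 4.29e-05). KRT19, a smaller type I keratin of ducts that lacks the usual tail domain (chromosome 17, 41523617 to 41528308, minus strand), stood at 3280, 4010 and 3258 normalized counts in control and at 1925, 1997 and 1994 under low glucose. The mean decreased by 43.9%, from 3516 ± 428 to 1972 ± 40.8, and the log2 fold change was -0.83 (SE 0.0866, limma adjusted p = 7.46e-06). For neither gene did the conditions overlap, and 6.07% and 4.72% of the genes tested had a lower log2 fold change than KRT18 and KRT19. In bulk RNA, fewer cells that express a gene and less RNA of it per cell cannot be told apart.

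With every library thinned to the depth of the smallest, the log2 fold changes of KRT8, KRT18 and KRT19 were -1.005, -0.74 and -0.84, and that of VIM was 0.42. KRT8 and KRT18 lie side by side on opposite strands and share 525 bp of annotated exon, 7.63% of the exon length of KRT8 and 17.1% of that of KRT18. The strand setting of the counting is not given in the sources used here, so how reads of the shared part were assigned is not known. The many pseudogenes of the keratins took few reads. The 51 annotated for KRT8 held 233 to 317 reads per library, at most 1.17% of those of KRT8, the 67 for KRT18 held 14 to 33, and the 5 for KRT19 held 0. Adding these reads to the parent gene left the log2 fold changes at -0.998, -0.74 and -0.83.

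**Figure D2:**
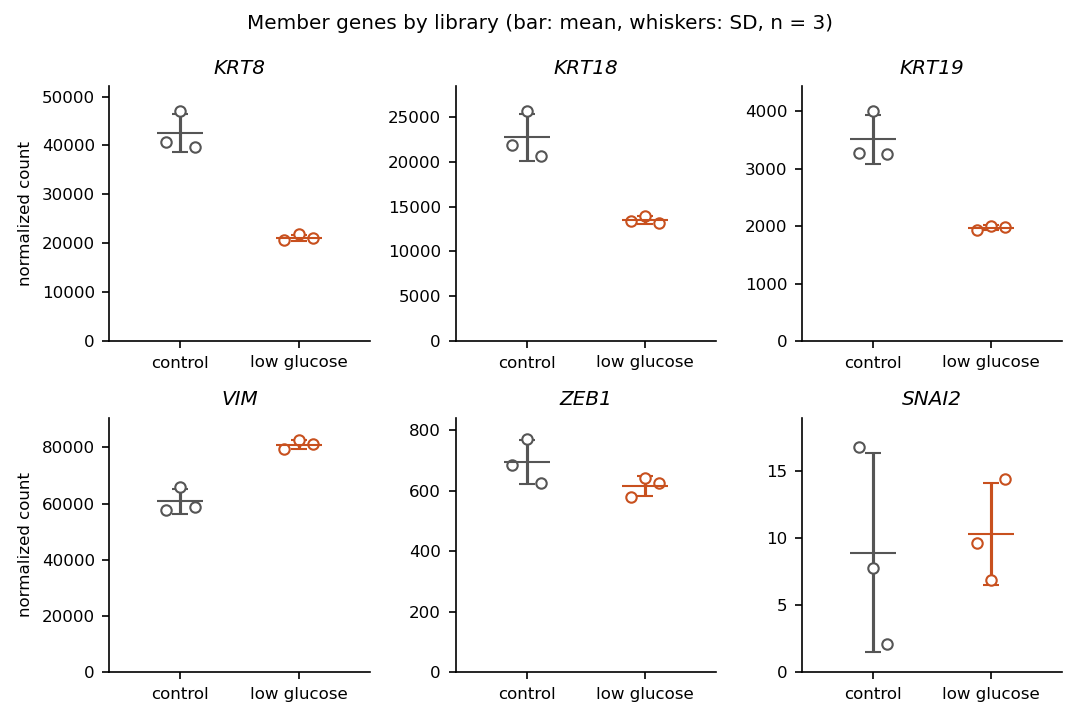
Normalized counts (reads divided by the size factor of the library) of 6 members in the 3 control (grey) and 3 low-glucose (orange) libraries, with the mean as a bar and the SD as whiskers. The libraries of the conditions are apart for KRT8, KRT18, KRT19 and VIM and overlap for ZEB1 and SNAI2.

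As counted, the level of KRT8 fell further than that of its partner, with the assignment of reads in their shared exon not known. The ratio of KRT8 to KRT18 in TPM within a library was 0.833, 0.814 and 0.860 in control and 0.686, 0.694 and 0.712 under low glucose. All low-glucose libraries were thus below all control libraries, and on the length of the canonical transcript the ranges were 1.45 to 1.53 and 1.22 to 1.27, again apart. The ratio of KRT8 to both type I keratins together, KRT18 and KRT19, was 0.676 to 0.712 in control and 0.577 to 0.594 under low glucose. KRT19 over KRT18 did not separate the conditions (0.198 to 0.208 in control, 0.188 to 0.199 under low glucose).

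Vimentin rose. VIM, the intermediate filament of mesenchymal cells (chromosome 10, 17228241 to 17237593, plus strand), had 51599, 59101 and 54828 reads in control, or 57844, 65874 and 58661 normalized counts. Under low glucose it had 82449, 83526 and 107058 reads, or 79311, 82510 and 81118 normalized counts, and every one of these libraries was above every control library. The mean increased by 33.2%, from 60793 ± 4419 to 80980 ± 1604 (SD, n = 3), with a log2 fold change of 0.42 (SE 0.106, limma adjusted p = 0.00819). The size of this rise was not rare, since 27.7% of the genes tested had a higher log2 fold change. The call was lost with quantile normalization (log2 fold change 0.21, limma adjusted p = 0.206), with TPM (0.35, limma adjusted p = 0.0885), and when the control library of 9741183 reads or any single low-glucose library was left out (limma adjusted p = 0.0545 to 0.0841), always in the same direction. It held in edgeR (0.44, adjusted p = 0.00133) and in DESeq2 (0.41, adjusted p = 1.49e-06).

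A pair of long non-coding genes on the minus strand share exon with VIM. VIM-AS1 shares 656 bp, 12.7% of the exon length of VIM, and its reads came to 28.8% to 33.4% of those of VIM across the 6 libraries. ENSG00000234961 shares 619 bp of its own 706 bp, and its reads came to 38.8% to 41.1% of those of VIM, so that per length it stood at 10307 TPM in control, above VIM itself. Both moved as VIM did, with log2 fold changes of 0.37 (SE 0.1003, limma adjusted p = 0.0122) and 0.42 (SE 0.0949, limma adjusted p = 0.00370). The libraries were made with a strand-specific kit, but the strand setting of the counting is not given in the sources used here, so reads of VIM and of these genes cannot be told apart. With the reads of all 3 summed, the log2 fold change was 0.41 (limma adjusted p = 0.0169).

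**Figure D3:**
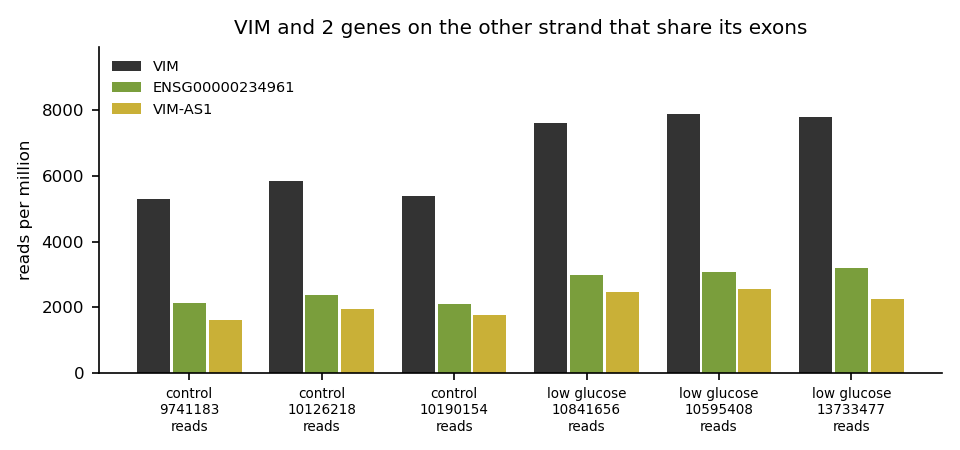
Reads relative to the library total (RPM) for VIM (black), ENSG00000234961 (green) and VIM-AS1 (yellow) in each of the 6 libraries, named by condition and depth. All 3 genes are higher in each low-glucose library than in each control library.

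The makeup of the filament transcripts differed between the conditions. KRT8, KRT18, KRT19 and VIM together took 1.12% to 1.26% of the reads in control and 1.10% to 1.149% under low glucose, which overlap. Per length, the sum was taken over all 10 members and did not overlap, at 7545 to 8905 TPM in control and 6828 to 7015 TPM under low glucose. ZEB1, the highest of the members outside these 4, lay between 19.4 and 26.6 TPM. Of all reads, the keratins took 0.584% to 0.679% in control and 0.344% to 0.361% under low glucose, and VIM took 0.530% to 0.584% and 0.760% to 0.788%. The ratio of VIM to the 3 keratins in TPM was 0.774, 0.752 and 0.816 in the control libraries and 1.88, 1.86 and 1.91 in the low-glucose libraries. On the length of the canonical transcript it was 0.645 to 0.694 and 1.63 to 1.67. A ratio within a library is free of the scaling between libraries, with which the log2 fold change of VIM moved between 0.21 and 0.50. The ratio to the keratins still takes the reads of VIM as counted. Genes on the other strand that share its exons held 69.8% to 73.8% as many, so the level of this ratio in each condition is not settled.

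**Figure D4:**
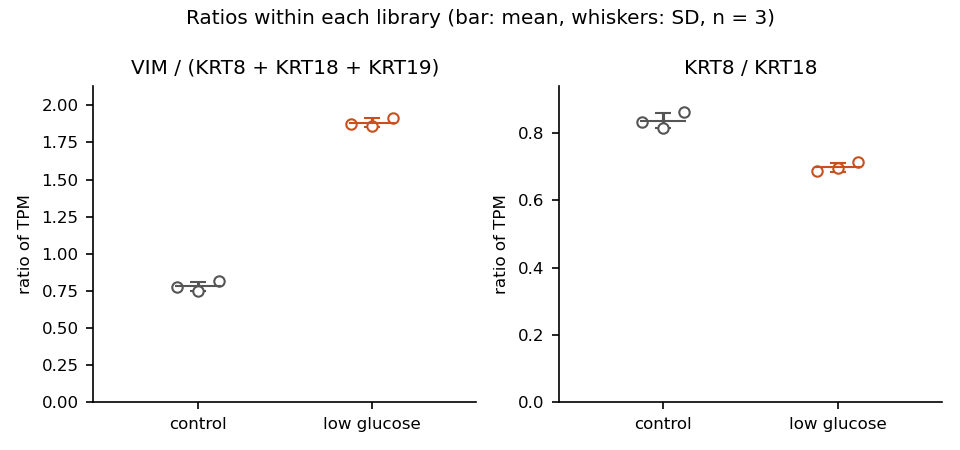
Ratio of TPM values within each library, for VIM over the sum of KRT8, KRT18 and KRT19 (left) and for KRT8 over KRT18 (right), with points for the 3 libraries of a condition, the mean as a bar and the SD as whiskers. With the reads of VIM as counted, the ratio of VIM to keratins is 0.781 ± 0.0324 in control and 1.88 ± 0.0283 under low glucose. The ratio of KRT8 to KRT18 is 0.836 ± 0.0230 and 0.697 ± 0.0137.

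The adhesion molecules were at or near 0 in both conditions. CDH1, E-cadherin (chromosome 16, 68737292 to 68835537, plus strand), had 0, 1 and 1 reads in control and 0, 1 and 3 under low glucose. EPCAM (chromosome 2, 47345158 to 47387601, plus strand) had 1 read in a single low-glucose library and 0 in the other 5. CDH2, N-cadherin (chromosome 18, 27932879 to 28177946, minus strand), had 0 reads in all 6. At these depths 3 reads would be 0.109 to 0.170 TPM for CDH1, 0.273 to 0.425 TPM for EPCAM and 0.0772 to 0.120 TPM for CDH2, limits that cover counting error only. A change of these genes was not detectable at this depth, and no fold is given. The antisense gene that overlaps CDH1, ENSG00000260798, had at most 1 read per library.

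Of the transcription factors, ZEB1 was the one clearly expressed. ZEB1 (chromosome 10, 31318495 to 31529814, plus strand) had 610, 690 and 584 reads in control, or 684, 769 and 625 normalized counts, and 601, 649 and 826 reads under low glucose, or 578, 641 and 626 normalized counts. The conditions overlapped. The mean was 693 ± 72.5 in control and 615 ± 32.9 under low glucose (SD, n = 3), and the log2 fold change of -0.17 did not pass the threshold (SE 0.0931, limma adjusted p = 0.194). It passed only without the control library of 10190154 reads (log2 fold change -0.24, limma adjusted p = 0.0476). ZEB1-AS1, on the other strand with 396 bp of shared exon, had reads equal to 11.5% to 14.6% of those of ZEB1 in control and 18.2% to 25.96% under low glucose. Its own log2 fold change of 0.47 did not pass (SE 0.178, limma adjusted p = 0.0592), and with its reads added ZEB1 stood at -0.07 (limma adjusted p = 0.593).

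SNAI2 (chromosome 8, 48917598 to 48921740, minus strand), also called Slug, had 15, 7 and 2 reads in control and 10, 7 and 19 under low glucose. The control range in normalized counts, 2.14 to 16.8, held that of low glucose, 6.91 to 14.4, and the log2 fold change of 0.46 (SE 0.563, limma adjusted p = 0.580) turned to -0.20 without the control library of 10190154 reads (limma adjusted p = 0.788). ZEB2 (chromosome 2, 144364364 to 144521057, minus strand) had 1, 2 and 0 reads in control and 2, 0 and 1 under low glucose. With 3 reads equal to 0.0253 to 0.0395 TPM, it lay under the limit throughout, and ZEB2-AS1 on its other strand had 0 reads.

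The genes with which the members act were taken from 11 lists of 154 genes, of which 115 were tested, 14 rose and 35 fell in limma (42.6% called, against 30.9% of all genes tested, of which 14.7% rose and 16.2% fell), with a median log2 fold change of -0.07 against 0.05 over all 21101 genes. The lists were drawn up with earlier results of these data known and are described by counts alone. Among catenins, nectins and other partners of cadherins, 7 of 10 tested fell and 0 rose, with a median of -0.52, although CDH1 and CDH2 had almost no reads. VCL (vinculin) fell from 6650 ± 938 to 3145 ± 203 normalized counts (SD, n = 3; log2 fold change -1.07, limma adjusted p = 2.05e-06), and NECTIN1, a nectin of the adherens junction, fell by 0.90 on the log2 scale (limma adjusted p = 0.000534). CTNNAL1, a relative of alpha-catenin and the most abundant of the list at 217 TPM in control, fell by 0.74 (limma adjusted p = 1.73e-05).

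Of 12 other cadherins, 3 had at least 1 TPM in control. CDH24, at 10.9 TPM, had a log2 fold change of 0.35 that did not pass (limma adjusted p = 0.0544). CDH5, the cadherin of endothelium, went from 173 ± 15.7 to 10.5 ± 1.38 normalized counts (log2 fold change -3.92, limma adjusted p = 1.74e-08), beside PECAM1 and VWF, further endothelial markers, at no more than 4 reads in any library. CDH15, the cadherin of muscle, rose from 7.36 ± 4.57 to 35.5 ± 6.44 normalized counts (log2 fold change 2.26, limma adjusted p = 0.000665).

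Of the tight junction and polarity genes, 4 of 14 tested rose and 1 fell, with a median log2 fold change of 0.43. Over all genes tested, 14.7% rose and 16.2% fell. CLDN4 and CLDN1, claudins that seal the space between epithelial cells, rose by 0.82 and 0.73 on the log2 scale (limma adjusted p = 5.69e-05 and 1.67e-05). CLDN1, the most abundant of the list, went from 34.9 to 55.7 TPM. CGN (cingulin) fell from 16 to 24 reads per control library to 8 to 14 reads under low glucose (log2 fold change -1.16, limma adjusted p = 0.0296), a call that 9 of 17 alternatives did not keep. Of the desmosome genes, 1 of 9 tested rose and 3 fell, with a median of -0.07. The desmosomal cadherin DSG2 rose by 0.58 (limma adjusted p = 0.000817) while PKP3, a plakophilin of the plaque, and EVPL, envoplakin, fell by 0.86 and 0.45 (limma adjusted p = 1.43e-05 and 0.00844). The call of EVPL was lost without a variance trend and without low_glucose replicate 1 (limma adjusted p = 0.110 and 0.0727), and its log2 fold change was -0.30 without the control library of 10126218 reads. PERP, the most abundant at 87.0 TPM, had a log2 fold change of 0.19 (limma adjusted p = 0.0910).

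The other keratins gave no call in the direction of KRT8, KRT18 and KRT19. Of 14, 6 had at most 3 reads in any library. Among the 8 tested, 3 rose and 0 fell (14.7% and 16.2% over all genes tested), with a median log2 fold change of 0.68. KRT81, a hair keratin, went from 5 to 30 reads in control to 76 to 103 under low glucose (log2 fold change 2.26, limma adjusted p = 0.00108), and KRT16, a keratin of stressed epidermis, from 30 to 35 reads to 118 to 133 (1.63, limma adjusted p = 1.13e-05). KRT81 and KRT86, hair keratins of closely related sequence, may share reads, and both rose. KRT80, the most abundant of them at 143 TPM, had a log2 fold change of -0.09 (limma adjusted p = 0.436). Among other intermediate filaments and their linkers, 5 of 8 tested fell and 0 rose, with a median of -0.71. LMNB1 and LMNB2, the B-type lamins of the nuclear envelope, fell by 1.27 and 0.88 on the log2 scale (limma adjusted p = 4.66e-08 and 2.58e-06), and NES (nestin) fell by 1.18 (limma adjusted p = 0.00621). Without a variance trend the calls of KRT81 and NES were lost (limma adjusted p = 0.0550 and 0.0676), and that of NES also without low_glucose replicate 1 (limma adjusted p = 0.0508).

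**Figure D5:**
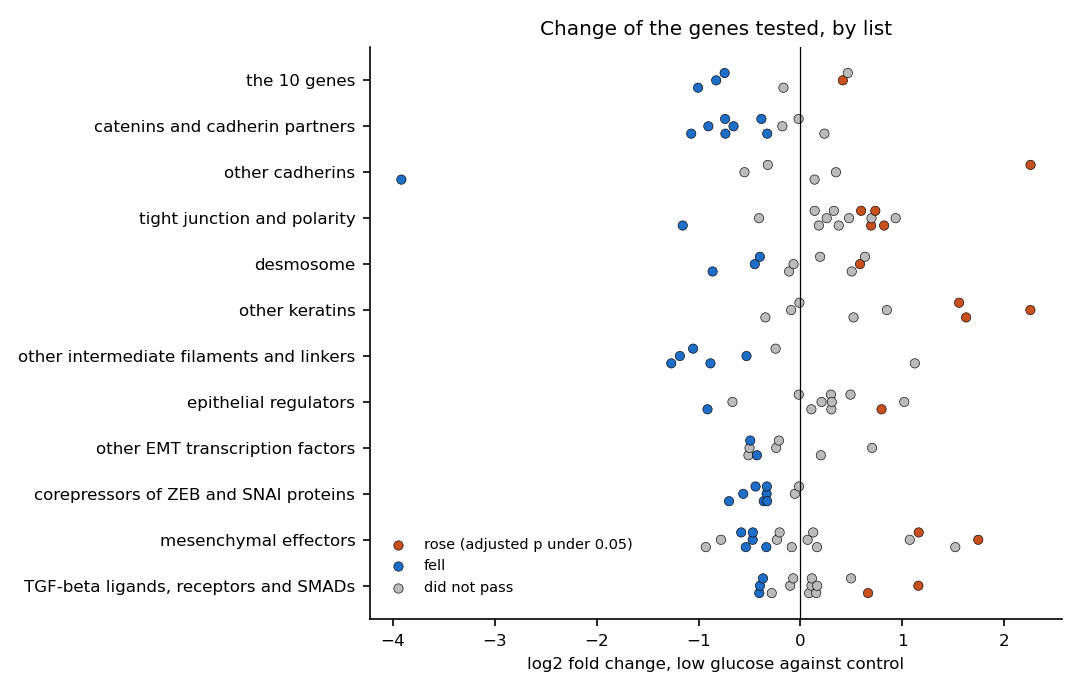
Log2 fold change, low glucose against control, of each gene tested in the members and the 11 lists, in orange where it rose and in blue where it fell at a limma adjusted p of 0.05, and in grey where it did not pass. Genes with at most 3 reads in every library (ZEB2, CDH12 and NEFH) are not drawn, and points are shifted up or down only to keep them apart. KRT8, KRT18 and KRT19 lie left of 0 while the genes that rose among the other keratins lie beyond 1.5.

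Of the regulators of the epithelial state, 1 of 11 tested rose and 1 fell, with a median log2 fold change of 0.30. Over all genes tested, 14.7% rose and 16.2% fell. Of the 18 regulators listed, 7 had at least 1 TPM in control and 7 had at most 3 reads in any library. GRHL2 and FOXA2 had 0 reads. KLF4, a zinc-finger factor of epithelial differentiation, rose by 0.80 (limma adjusted p = 2.75e-05) and EHF, an ETS factor of epithelia, fell by 0.91 (limma adjusted p = 6.83e-06). Of the other EMT transcription factors, 0 of 8 tested rose and 2 fell. Of the 14 listed, 8 had at least 1 TPM in control, and TWIST1, TWIST2, TCF4, FOXC2 and PRRX1 had 0 reads. SNAI1 stood at 6.66 TPM in control, against 0.827 for SNAI2, with a log2 fold change of -0.24 (limma adjusted p = 0.501). TCF3 (E2A), the most abundant, fell from 180 to 127 TPM (log2 fold change -0.43, limma adjusted p = 0.00156), and FOXC1 fell by 0.49 (limma adjusted p = 0.0163). The call of FOXC1 was lost in 5 of 17 alternatives (limma adjusted p = 0.0532 to 0.117), among them without the control library of 9741183 reads, low_glucose replicate 1 or the low_glucose library of 13733477 reads, and that of TCF3 without a variance trend (limma adjusted p = 0.0522). Of the corepressors through which ZEB and SNAI proteins act, 7 of 9 tested fell and 0 rose, with a median of -0.33. SMARCA4, the ATPase of the SWI/SNF complex, and KDM1A, a histone demethylase, fell by 0.70 and 0.56 (limma adjusted p = 0.000316 and 0.000499), while HDAC1, the most abundant, stood at -0.05 (limma adjusted p = 0.618).

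Of the genes of the mesenchymal state other than VIM, 2 of 17 tested rose and 5 fell, with a median log2 fold change of -0.20. Over all genes tested, 14.7% rose and 16.2% fell. In control, 12 of the 21 mesenchymal genes listed had at least 1 TPM, while FN1 stood at 0.289 TPM and THY1 had 0 reads. The membrane metalloproteinase MMP14 rose by 1.75 (limma adjusted p = 0.000116). TAGLN and CCN2 fell by 0.58 and 0.54 (limma adjusted p = 0.00692 and 0.0294), and S100A4, the most abundant at 841 TPM, stood at -0.09 (limma adjusted p = 0.684). The call of CCN2 was lost in 7 of 17 alternatives. In the TGF-beta pathway, a driver of EMT, 2 of 14 tested rose and 3 fell, with a median of 0.10. TGIF1 and SKIL, which restrain SMAD proteins, rose by 1.16 and 0.66 (limma adjusted p = 3.23e-07 and 0.00339), the ligand TGFB1 and its effector SMAD3 each fell by 0.40 (limma adjusted p = 0.00570 and 0.00215), and SMURF2, the most abundant over all 6 libraries, had 0.16 (limma adjusted p = 0.111). The call of TGFB1 was lost in 3 of 17 alternatives (limma adjusted p = 0.0521 to 0.0862), namely quantile normalization (log2 fold change -0.24), no variance trend and without low_glucose replicate 1, and that of SKIL in TPM (limma adjusted p = 0.0572). The receptor TGFBR2 had at most 4 reads in any library.

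Where a list gave 0 calls in limma in a direction, the other counts were as follows. At an unadjusted p under 0.05, limma gave 1 gene among the cadherin partners (AFDN, higher), 1 among the other keratins (KRT15, lower), 1 among the other filaments (GFAP, higher), 1 among the other EMT factors (TCF12, higher), 0 among the corepressors and 1 among the duct markers (SOX9, lower). At the adjusted threshold edgeR gave AFDN and TCF12 of these and DESeq2 gave 0. Over all genes tested in limma, at least 14.7% rose and 16.2% fell at the unadjusted threshold, since each gene called at the adjusted threshold also passes it.

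Markers of pancreatic ducts were in part absent from these cells. Of 9 outside the members, SOX9 stood at 132 TPM in control, MUC1 at 7.39 and KRT7 at 0.355, and CFTR had 0 reads. In limma 0 of the 5 tested changed at the threshold, against 30.9% of all genes tested. The members KRT8, KRT18, KRT19 and EPCAM are duct markers too. Of them, KRT8, KRT18 and KRT19 fell and EPCAM was not tested. SOX9, which had a log2 fold change of -0.21 (limma adjusted p = 0.0830), is shared with the EMT list. Of 20 markers of acinar, endocrine, blood, endothelial and fibroblast cells, 12 had no read, PRSS1, INS and PTPRC among them. Their summed level was 5.70 to 9.69 TPM in control and 4.98 to 5.78 under low glucose, led by SYP at 4.65 TPM in control (log2 fold change -0.10, limma adjusted p = 0.759). COL3A1, a collagen of fibroblasts, fell from between 27 and 35 reads to between 4 and 19 (log2 fold change -2.18, limma adjusted p = 0.000909).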

How the data were processed

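RNA of 6 MiaPaCa-2 cultures was sequenced after strand-specific library preparation. Per the submitters' processing notes and the methods, the authors trimmed the reads with Trim Galore, mapped them to hg38 with STAR 2.7.0e and used DESeq2. RSEM is in the study's software list, but the counting tool, strand setting and annotation are not given in the sources used here. The deposited signal values are gene counts that the authors divided by 1 size factor per library, and dividing them by what 1 read is worth gave whole reads for 100% of values (tolerance 0.001). Recomputed median-of-ratios size factors matched.

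Labels tie a column each to low-glucose replicate 1 (10841656 reads) and replicate 2 (10595408 reads). The other 4 were placed by the column ranges given with the series for the conditions, and are named by condition and depth. The 10 members and the gene lists were chosen with earlier results of these data known.

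For 21101 genes (mean value of 1 or more), log2(value + 1) was compared with limma 3.58.1 (lmFit and eBayes with trend, two-sided, Benjamini-Hochberg over all genes, threshold 0.05) in R 4.3.3. With 3 libraries against 3, an exact permutation test cannot go below 0.1 and was not used. Counting tests on the recovered reads with edgeR 4.0.16 called 6554 genes and with DESeq2 1.42.0 called 5482, against 6528 in limma. The scripts were tested on simulated data. TPM used exon lengths of Gencode 44, to which 99.5% of identifiers matched. Other alternatives were scaling, filters, pseudocount, variance model, thinning and each library left out. Named genes were all members and, of each list, the most abundant gene and, of genes called at 1 CPM or more, up to 2 with the greatest rise and up to 2 with the greatest fall. Genes named beside these (VWF, PECAM1, TGFBR2, MUC1, KRT7, KRT15, KRT86, AFDN, GFAP, TCF12, SNAI1, FN1 and genes at 0 reads) were chosen after their values were seen. Some of the genes that this rule names are not reported here. Python 3.11.15 was used for tables (pandas 2.3.3, numpy 2.4.6) and for plots (matplotlib 3.10.9).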

Additional observations from a re-analysis of the deposited data

How the results depend on the processing

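KRT8, KRT18 and KRT19 kept their direction and their call in all 18 alternatives each, with log2 fold changes of -1.07 to -0.92, -0.81 to -0.66 and -0.89 to -0.64 over those with all libraries, and -1.05 to -0.93, -0.81 to -0.65 and -0.88 to -0.73 with a library left out. VIM kept its direction in all 18 and its call in 12, with limma adjusted p-values of up to 0.206 and a log2 fold change of 0.21 to 0.50, and 0.38 to 0.48 with a library left out. ZEB1 was called in 1 of 18. SNAI2 ranged from -0.20 to 1.05 with a library left out and was called in none of these (limma adjusted p = 0.195 to 0.856). The number of members called was 4 and ranged from 3 to 5. The number of other listed genes called was 49, and 32 without a variance trend. The number of all genes called was 6528, and 4090 without a variance trend. With a library left out it was 4298 (without low_glucose replicate 1) to 7173. The 3111 genes that rose and 3417 that fell became 3933 and 2646 under scaling by library size, and 2038 and 3355 in TPM, with the cause not tested. At a mean of at least 20 the median of all genes moved from -0.02 to 0.06 and -0.08. No paired analysis was possible because replicate numbers could be tied to 2 columns only, both of low glucose. The 3 libraries per condition and counts of 3 reads or fewer limit what could be seen for CDH1, CDH2, EPCAM and ZEB2. Where a condition was left with 2 libraries, the fit assumed the spread of the others.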
